A study of Mus musculus with 2 samples.

Results

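Non-cycling islet CD8 T cells with at least 2 UMIs of Gzmb, Havcr2 and Entpd1 together numbered 269 of 2091 CD8 T cells. The cells were found in pancreatic islets of nonobese diabetic (NOD) mice and came from 2 droplet libraries. The wild-type library, from NOD.Foxp3-EGFP mice, gave 149 of its 891 CD8 cells, and the knockout library, from NOD.Tnfrsf9-/-.Foxp3-EGFP mice, gave 120 of its 1200. The knockout lacks Tnfrsf9, which encodes the costimulatory receptor CD137, in all cells, and both strains carry the Foxp3-EGFP reporter. Each library held CD8 T cells and GFP+ Tregs sorted from islets pooled from 6 females of 9 to 10 weeks and was sequenced as 1 sample, so each genotype has 1 library, no test was possible, and genotype cannot be told apart from library. All intervals below are 95% intervals and cover counting error only.

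The cells were chosen by their UMIs (unique molecular identifiers, 1 per captured RNA). A CD8 cell had 200 to 5000 genes, at most 20% mitochondrial UMIs, at least 2 UMIs of Cd8a plus Cd8b1, and none of Cd4 or Foxp3. A gated cell had at least 2 UMIs of Gzmb, Havcr2 and Entpd1 together and fewer than 3 of the 5 cycling genes Mki67, Top2a, Birc5, Ube2c and Cdk1. The levels of these 8 genes are therefore fixed by the choice and are not results. The knockout library was checked first at Tnfrsf9 itself. Tnfrsf9 (GRCm38 chr4:150914562-150946102) had 160 UMIs in wild-type and 47 in knockout gated cells, a log2 ratio of -1.497 (-2.00 to -1.02). The ratio was -1.75 in the other CD8 cells and -1.58 in the Cd4 or Foxp3 positive cells of the same libraries. Tnfrsf9 was thus lower in the knockout in every class, but its 3' tags were not absent, and where in the gene the deletion lies was not used here.

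CD8 T cells kill target cells through perforin and granzymes and through Fas ligand, and they recruit other cells with chemokines such as CCL3, CCL4 and CCL5. Under lasting antigen, as in the islets of NOD mice, they acquire inhibitory receptors such as PD-1, LAG3 and TIM-3 (Havcr2) and the ectonucleotidase CD39 (Entpd1). A less differentiated pool that expresses TCF1 (Tcf7) and Slamf6 is known to replenish them.

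The promoters below are shown because their genes mark these cells: Gzmb was used to choose them, while Ccl3 and Cxcr6 (the receptor for CXCL16) were not and were among the leading genes in both libraries. Each runs 5' to 3' on the gene's strand, from 250 bases before to 50 bases after the start in RefSeq (GRCm38.p6), with matches to the RUNX core (TGTGGT or, on the other strand, ACCACA) in capitals.
Gzmb, chr14:56262285-56262584, minus strand: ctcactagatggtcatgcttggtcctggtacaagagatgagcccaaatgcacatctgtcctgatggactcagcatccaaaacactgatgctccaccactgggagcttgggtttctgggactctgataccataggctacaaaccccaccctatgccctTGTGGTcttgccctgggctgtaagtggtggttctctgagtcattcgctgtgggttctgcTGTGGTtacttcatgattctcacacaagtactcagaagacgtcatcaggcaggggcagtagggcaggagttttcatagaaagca
Ccl3, chr11:83649329-83649628, minus strand: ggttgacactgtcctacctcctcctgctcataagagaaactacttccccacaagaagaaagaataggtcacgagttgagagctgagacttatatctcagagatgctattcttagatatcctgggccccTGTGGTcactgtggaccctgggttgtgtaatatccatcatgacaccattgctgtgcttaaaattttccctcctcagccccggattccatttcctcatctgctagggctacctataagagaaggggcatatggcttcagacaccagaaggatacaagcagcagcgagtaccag
Cxcr6, chr9:123806227-123806526, plus strand: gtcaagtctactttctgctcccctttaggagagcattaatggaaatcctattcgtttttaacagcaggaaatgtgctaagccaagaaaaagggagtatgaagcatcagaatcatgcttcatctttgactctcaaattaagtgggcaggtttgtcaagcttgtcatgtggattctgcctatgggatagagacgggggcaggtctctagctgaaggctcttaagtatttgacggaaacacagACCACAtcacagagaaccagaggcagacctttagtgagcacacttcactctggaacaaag
Gzmb held 2 matches, Ccl3 1 and Cxcr6 1. Of the 59 genes over 2-fold higher in gated cells in both libraries (below), 46 had a promoter in the table, and 10 of these (21.7%, exact interval 10.9 to 36.4) held the RUNX core. It stood in 615 of 5107 promoters of the genes measured in that comparison and in 16.9% of all 27025 promoters. The shares among the 46 were 10.9% for AP-1 (TGANTCA), 28.3% for the NFAT core (GGAAAA) and 23.9% for an E box (CACCTG), against 4.31%, 21.2% and 15.9% of the promoters of measured genes, both strands searched. A match is only a run of letters, and each of the 4 exact intervals included the share among measured genes. The motifs were picked after values were seen.

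The gate genes were spread unevenly. Among non-cycling CD8 cells, 507 of 709 wild-type (71.5%) and 925 of 1103 knockout cells (83.9%) had no gate UMI, and 27 and 30 had 10 or more. Just outside the limit stood 53 wild-type and 58 knockout cells with 1 gate UMI, and just inside it 45 and 23 with 2. Within the gate, 84 wild-type and 73 knockout cells had Gzmb, 85 and 64 had Havcr2, and 110 and 72 had Entpd1. All 3 occurred together in 29 and 21 cells (19.5% and 17.5%). Few gated cells therefore carried the full combination.

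**Figure D1:**
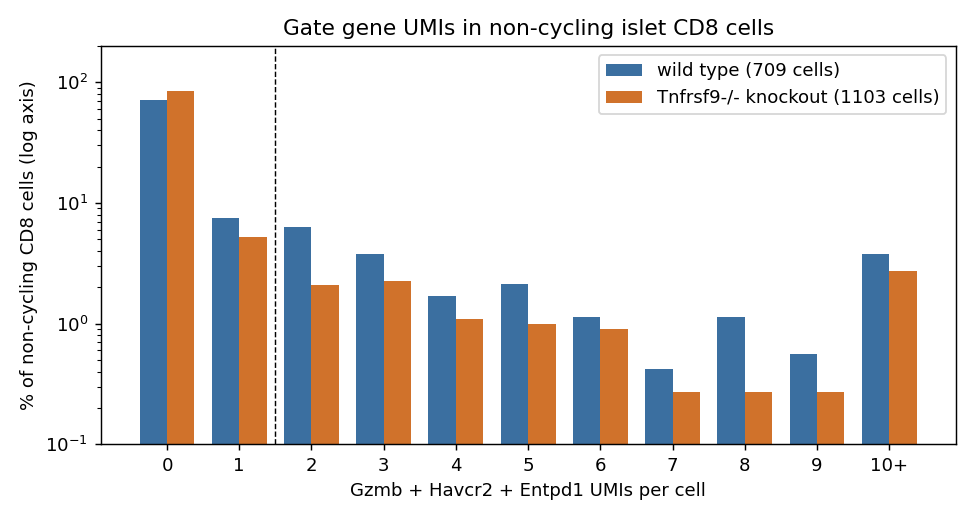
Bars give the percentage of non-cycling CD8 cells (log axis) of each library with 0 to 9, or 10 and more, UMIs of Gzmb, Havcr2 and Entpd1 together, and the dashed line marks the limit for gated cells. Most cells had none, 71.5% (wild type) and 83.9% (knockout).

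Of wild-type CD8 cells 16.7% were gated (14.3 to 19.3) against 10.0% of the knockout ones (8.36 to 11.8). The knockout share was different by -6.72 percentage points (-9.75 to -3.78). After each cell was thinned to 2000 UMIs the shares were 8.70% (76 of 874) and 6.33% (75 of 1184). The other CD8 cells differed too. When ungated non-cycling cells were split at 10 Ccl5 UMIs, a limit chosen after values were seen, the Ccl5-low cells were 32.9% of CD8 cells (wild type) and 63.5% (knockout), and the Ccl5-high cells 30.0% and 18.4%. Ccl5 itself was lower in the knockout, at a log2 ratio of -0.64 in gated and -1.29 in other CD8 cells. How far this moved cells across the cut was not tested. As a share of gated and Ccl5-high cells alone, gated cells were 35.8% (149 of 416, wild type) and 35.2% (120 of 341, knockout), a difference of -0.63 points (-7.41 to 6.23). With all cycling cells added to that base, they were 24.9% and 27.4%, a difference of 2.48 points (-2.89 to 7.95). These bases were also chosen after values were seen. Cycling cells with 2 or more gate UMIs were 12.1% of wild-type CD8 cells (108) and 3.25% of knockout CD8 cells (39).

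The median gated cell held 5912 (wild type) or 6111 UMIs (knockout), and all gated cells together 989936 and 820660. The other CD8 cells had medians of 6124.5 and 5248.5. The libraries shared 16 barcodes, of which 2 were gated wild-type and 1 gated knockout cells. Of the B cell, myeloid, erythroid, gamma-delta and NK marker lists, Lyz2, Zbtb16 and Hba-a1 were at 0 in gated cells of both libraries. Cd79a had 5 UMIs, all in 1 knockout barcode. Acinar list UMIs numbered 107 and 39 (knockout), led in wild-type cells by Prss2 (71 UMIs in 11 cells, against 2 UMIs in knockout cells). Cela1 had 32 and 13 UMIs. Other acinar genes went the other way, with Ctrb1 at 0 and 3 UMIs and Try4 at 0 and 4. Of the 13 acinar genes, 5 had UMIs in wild-type and 10 in knockout gated cells, so the totals do not rank the libraries by acinar RNA. Cst3 of the myeloid list had 183 UMIs in 98 wild-type and 181 in 78 knockout cells. In all, 38.3% of wild-type and 39.2% of knockout gated cells had 2 or more myeloid list UMIs, beside 30.7% and 30.3% of Ccl5-high cells. Gated cells numbered 80 and 65 once cells with 2 or more UMIs of such a list were removed (B cell, myeloid, acinar, endocrine, stromal or erythroid). The part of such RNA in the values below was not tested.

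A few barcodes held many UMIs that went against the label. A knockout gated barcode with 23014 UMIs held 11366 of Gm43291 and 624 of Jchain, with 2 of Cd8a, none of Cd3e and none of Gzmb or Havcr2. Another knockout barcode held 246 UMIs of Cd74 (the MHC class II invariant chain) beside 132 of Ccl5 and 15 of Cd8a, and 1 wild-type barcode held 69 of Cd74 and none of Ccl5. Without the 4 barcodes that had 20 or more B cell and MHC class II UMIs, 148 wild-type and 117 knockout cells remained. Named and flagged genes that passed 1.5-fold with these barcodes and not without them are given both ways. No doublet caller was run.

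Against the other CD8 cells, gated cells of both libraries had more Ccl3, Ccl4, Ccl5, Cxcr6, Fasl, Ifng, Lag3 and Pdcd1 and less Tcf7, Slamf6 and Il7r. Since the gate chose the cells, these values are a description without a test. Of 6566 genes with at least 100 UMIs in the CD8 cells of each library, 59 were over 2-fold higher in gated cells of both libraries (0.899%) and 151 over 2-fold lower (2.3%). Counts of list members past 2-fold, given below, are to be read beside these shares. The other CD8 cells hold the cycling cells and, in the knockout, a larger share of Ccl5-low cells, so a ratio in the knockout is not set on the same base as in the wild type.

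Levels are in CPM, counts per 1000000 UMIs summed over the cells of a class. Ccl3 was at 1722 CPM (1642 to 1806) in wild-type and 1493 (1410 to 1579) in knockout gated cells. The other CD8 cells were at 283 and 212, so the log2 ratios were 2.60 and 2.82. Ccl4, at 4279 and 4896 CPM in gated cells, had log2 ratios of 2.38 and 2.88. Ccl5 had 2.04 and 2.70, and Cxcr6 had 1.92 and 2.60. These 4 genes were higher in gated cells of each library, with intervals clear of 0. Of 9 measured chemokines and cytokines 4 were over 2-fold higher in both libraries (Ccl3, Ccl4, Ccl5 and Ifng) and none lower, with medians of 0.04 and 0.70. The chemokine Xcl1 went the other way in wild-type cells, at -1.39 (-1.56 to -1.21), and was at 0.08 (-0.06 to 0.21) in knockout cells.

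Genes of killing followed. Fasl (Fas ligand) had log2 ratios of 2.24 and 2.63, and Gzma (granzyme A) 2.13 and 1.67. Gzma was uneven, found in 16 wild-type and 19 knockout gated cells, with up to 72 and 87 UMIs in 1 cell. Prf1 (perforin) had only 16 and 37 UMIs in gated cells and stayed below the minimum for this comparison. Apart from Gzmb, which the rule used, and the uneven Gzma, Fasl is the gene named here for the label cytotoxic, and other list members are only counted. Of the 10 measured members of the granule and killing list, 4 were over 2-fold higher in both libraries and none lower, with medians of 0.81 and 1.31 beside 0.01 and 0.06 for all genes.

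Ifng (interferon gamma) was higher by 1.67 and 2.37, and Prdm1 (the transcription factor Blimp-1) by 1.96 and 3.36. The inhibitory receptor list had 4 of 12 measured members higher and medians of 0.12 and 1.05: Lag3 (1.53 and 1.96), Pdcd1 (PD-1, 1.30 and 1.80), Cd101 (1.51 and 2.10) and Cd38 (1.22 and 1.91). Tox, a factor linked to exhaustion, differed less, at 0.55 and 0.89. Other leading genes by the naming rule included Dapk2, Lilrb4a, Tmem163, Setbp1, 2900026A02Rik and Wdr95, with log2 ratios from 1.73 to 3.02. Of 21 measured effector and exhaustion transcription factors 3 were higher, and 6 of 19 homing genes, including Itga1 (integrin alpha 1, 1.48 and 2.04) and Ccr2 (1.15 and 2.48).

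Of 11 measured progenitor and memory genes, 5 were over 2-fold lower in both libraries and none higher, with medians of -1.39 and -1.06. Tcf7 was at 24.2 CPM in wild-type and 17.1 in knockout gated cells, with log2 ratios of -2.29 and -3.28 against the other CD8 cells. Slamf6 was lower by -1.61 and -1.38, and Il7r (the interleukin-7 receptor) by -1.56 and -2.06. Of 11 measured naive and recirculation genes, 10 were over 2-fold lower in both libraries, among them Ccr7, Lef1 and S1pr1, with medians of -2.12 and -2.44. The lowest genes by the naming rule included Auts2 and cycling genes (Ccna2, Hist1h2ap, Hmmr, Nusap1, Casc5, Tpx2, Asf1b and Spc25), whose cells the rule leaves out of the gate. Auts2 had 0 and 3 UMIs in gated cells.

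Compared with the Ccl5-high cells outside the gate, the nearest class, fewer genes differed. Of 3190 genes with 100 UMIs in each library, 11 were over 2-fold higher in both and 23 lower. The higher genes included Gzma, Ccl3, Ccl4, Fasl, Dapk2, Tmem163, Cxcr6, Setbp1, Ifng and Litaf. Ccl3 had log2 ratios of 2.43 and 1.90 and Ccl4 of 1.96 and 1.60. Lag3 (0.94 and 1.16) and Pdcd1 (0.83 and 0.94) did not pass 2-fold in both. Tox did not set the classes apart, at 0.04 (-0.06 to 0.15) and 0.21 (0.09 to 0.33). Among the 23 lower genes were Tcf7 (-2.74 and -3.41), Il7r (-2.06 and -2.41), Slamf6 (-1.98 and -1.47) and Id3 (-3.71 and -2.58), all of the progenitor and memory list. Against cycling cells with gate genes, 24 of 2310 genes were higher and 92 lower, with Lag3 at 1.55 and 1.05 and Ccl3 at 1.62 and 0.24. The count against Ccl5-high cells rests on the split: with cells split at 2 Nkg7 UMIs instead, which naive-type cells also pass, 82 genes of 5012 were higher and 86 lower.

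**Figure D2:**
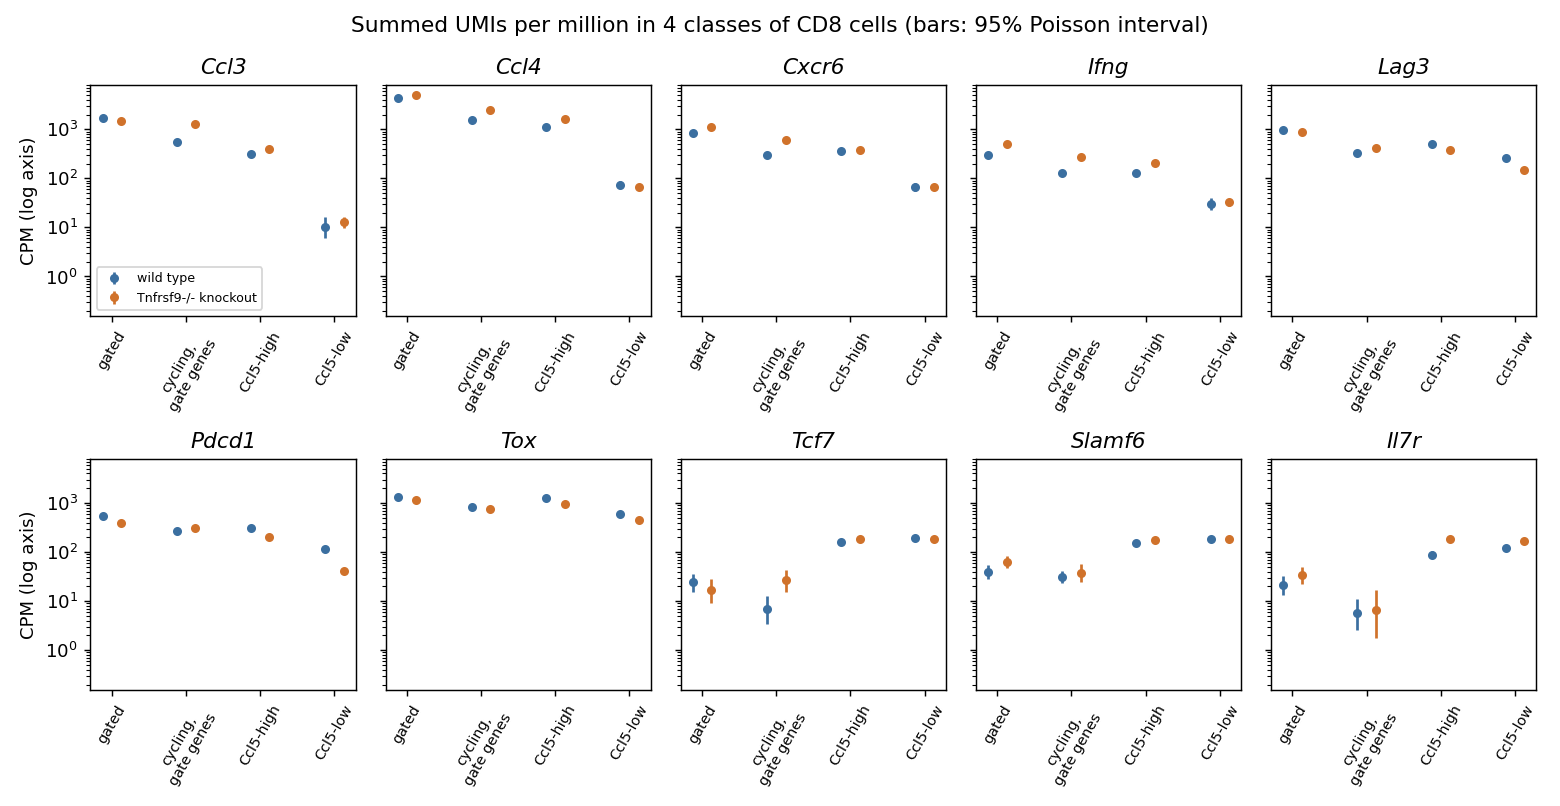
Points give CPM (log axis) of 10 genes in gated cells, cycling cells with gate genes, and Ccl5-high and Ccl5-low cells outside the gate, by library, with 95% Poisson intervals. Ccl3, Ccl4 and Cxcr6 are highest in gated cells of each library, and Tcf7, Slamf6 and Il7r are lowest in the gated and the cycling cells.

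Detection in cells thinned to 2000 UMIs gave the same order for the chemokines. Ccl4 UMIs were present in 79.6% (72.2 to 85.8) of gated cells (wild type) and 83.2% (75.2 to 89.4, knockout), in 44.5% and 39.5% of Ccl5-high cells, and in 6.36% and 6.15% of Ccl5-low cells, which serve as the background. Unthinned, 134 wild-type and 108 knockout gated cells had Ccl4. Unthinned, Tcf7 UMIs occurred in 8 wild-type (5.37%) and 10 knockout gated cells (8.33%, 4.07 to 14.8), against 118 Ccl5-high cells in each library (44.2% and 53.4%). After thinning Tcf7 was left in 3 of 147 and 0 of 119 gated cells, which limits cells with a UMI at that depth (up to 3.05% for 0 of 119) and not cells that express it, against 24.0% and 28.2% of Ccl5-high cells. Thinning left out 2 wild-type and 1 knockout gated cells.

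Levels also differed along the gate itself. In wild-type cells with 1, 2, 3 to 4 and 5 or more gate UMIs, Ccl3 was at 321, 678, 2277 and 2048 CPM, and in knockout cells at 735, 701, 979 and 2131. Cxcr6 was at 597, 765, 827 and 917 CPM in wild-type cells, and at 512, 1017, 932 and 1249 in knockout cells. Tcf7 was at 80.3 and 124 CPM in cells with 1 gate UMI, and between 0 and 43.5 inside the gate. Cells with a single gate UMI thus carried part of the pattern, and the limit of 2 cuts through a range.

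**Figure D3:**
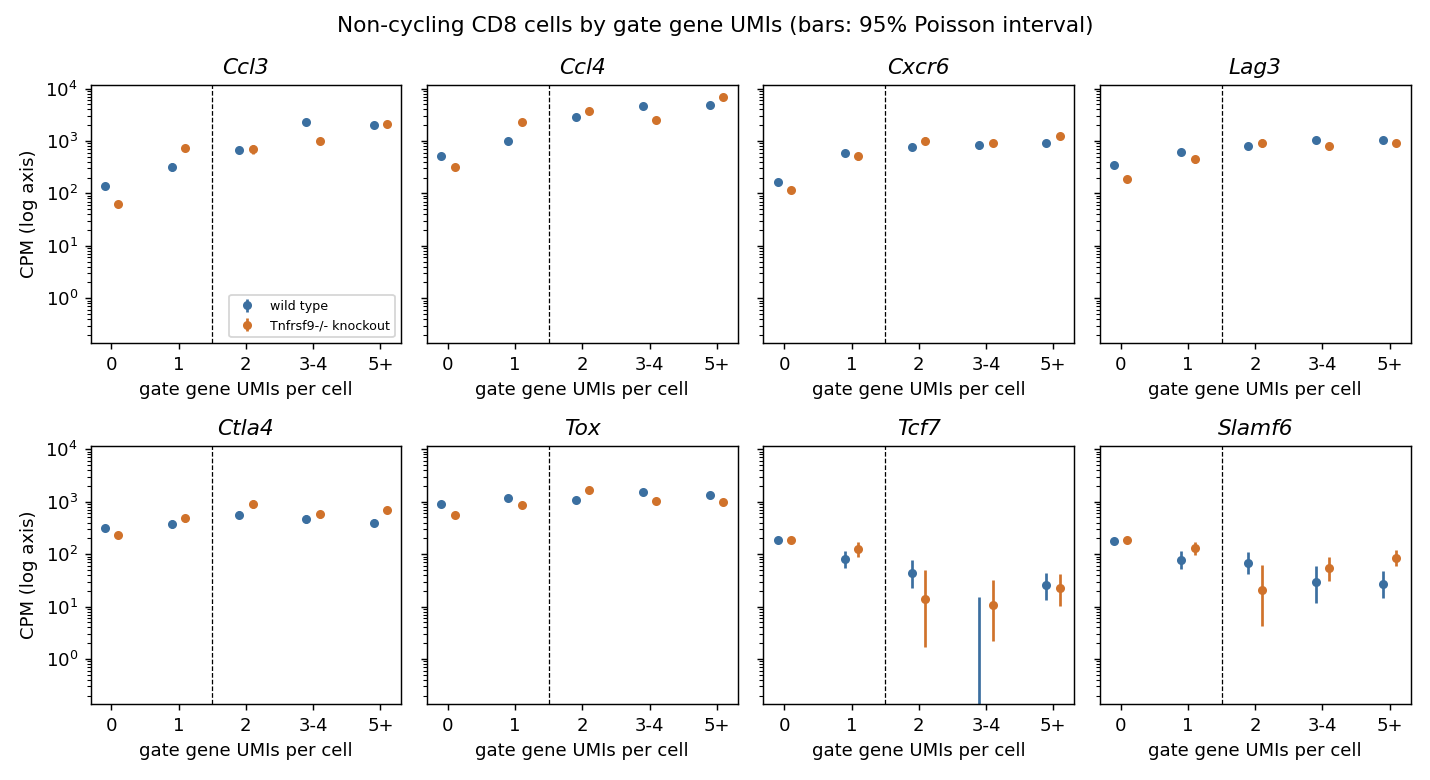
Points give CPM (log axis) of 8 genes in non-cycling CD8 cells with 0, 1, 2, 3 to 4 and 5 or more gate gene UMIs, by library, with 95% Poisson intervals, and the dashed line marks the limit. Ccl4 is at 513 and 312 CPM with no gate UMI and at 4947 and 6985 with 5 or more, with a dip to 2527 at 3 to 4 in the knockout, while Tcf7 is lower inside the gate.

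Inside the gate, cells with Havcr2 or Entpd1 but no Gzmb (65 wild-type and 47 knockout) had Gzma at 18.7 and 0 CPM, against 126 and 437 in cells with Gzmb alone (18 and 28). Their Lag3 was at 1110 and 865 CPM, against 496 and 583 with Gzmb alone. Tox was at 1313 and 1565 CPM, against 856 and 684. Cells that entered through Gzmb alone thus had less Lag3 and Tox in each library, from few cells.

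Compared between genotypes inside the gate, transcripts of the NF-kB factor Rel, the costimulatory receptor Cd226 and the interleukin-18 receptor were higher in the knockout, and Ctla2a, Gzmk and 6 of 14 measured interferon-stimulated genes were lower. Of 4813 genes with at least 50 UMIs in gated cells of both libraries together, 638 were over 1.5-fold higher (13.3%) and 193 over 1.5-fold lower (4.01%) in the knockout. The list counts below are to be read beside these shares. The median log2 ratio was 0.06. With trimmed-mean (TMM) scaling the counts were 447 and 340 and the median -0.04, so the share of higher genes among those past 1.5-fold was 76.8% without and 56.8% with it.

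Rel (chr11:23736847-23770970) had 52 UMIs in 32 of 149 wild-type gated cells and 195 in 71 of 120 knockout gated cells. This gave a log2 ratio of 2.18 (1.73 to 2.65), which was 2.10 without the 4 barcodes. In the other CD8 cells it was 1.35 and in the Cd4 or Foxp3 positive cells 0.60. Rel was thus higher in the knockout library beyond CD8 cells.

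Cd226 (75 and 197 UMIs) had a log2 ratio of 1.66 (1.27 to 2.07) in gated cells, 1.30 in other CD8 cells and 0.87 in the Cd4 or Foxp3 positive cells. Pag1, an adaptor that anchors the kinase Csk, had 1.83 (1.29 to 2.40), 1.37 and 0.63. Hivep3 had 1.89 in gated cells and 0.59 in other CD8 cells, Zcchc7 1.499 and 0.83, Gm42418 1.49 and 0.67, and Fosb (an AP-1 subunit) 1.44 and 0.59. These genes were higher in the knockout in both classes. Gm42418 was uneven, with 54 of its 275 knockout gated UMIs in 1 cell, and was found in 72 wild-type and 66 knockout gated cells. Rnf149 (1.35 and 0.16) and Nrp1 (neuropilin 1, 1.33 and 0.19) had other CD8 ratios near 0, but in the Ccl5-high cells Rnf149 was at 0.87 (0.37 to 1.37) and Nrp1 at 0.34 (-0.03 to 0.71).

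The 3 remaining named higher genes rested on the doubted barcodes. Gm43291 had a log2 ratio of 7.80, with 11366 of its 11415 knockout UMIs in 1 barcode, and 0.04 without the 4 barcodes. Cd74 went from 2.34 to 0.22 and Herpud1 from 1.45 to 0.24.

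Among the named lower genes, Ctla2a (chr13:60934155-60936625), which encodes a cathepsin inhibitor-like protein, had 364 wild-type and 103 knockout UMIs. Its log2 ratio was -1.55 (-1.88 to -1.23) in gated cells, -1.52 in other CD8 cells and 0.03 in the Cd4 or Foxp3 positive cells. A930011G23Rik had -1.73 and -1.86 in gated and other CD8 cells. Both were lower to a like degree in gated and ungated CD8 cells.

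Gzmk (granzyme K) had 227 and 103 UMIs and log2 ratios of -0.87 (-1.22 to -0.53) in gated and -2.14 in other CD8 cells. Lgals9 (galectin 9) had -1.28 (-1.98 to -0.62) in gated and 0.02 in other CD8 cells. Samhd1 had -0.95 and 0.12, with 37 of its 193 wild-type gated UMIs in 1 cell. Tnfrsf4 (OX40) had -1.03, with 47 of 133 wild-type and 29 of 54 knockout UMIs in 1 cell each. Gm10093, Rab19, Stmn1, Rtcb and AI413582 had log2 ratios from -1.31 to -0.91.

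**Figure D4:**
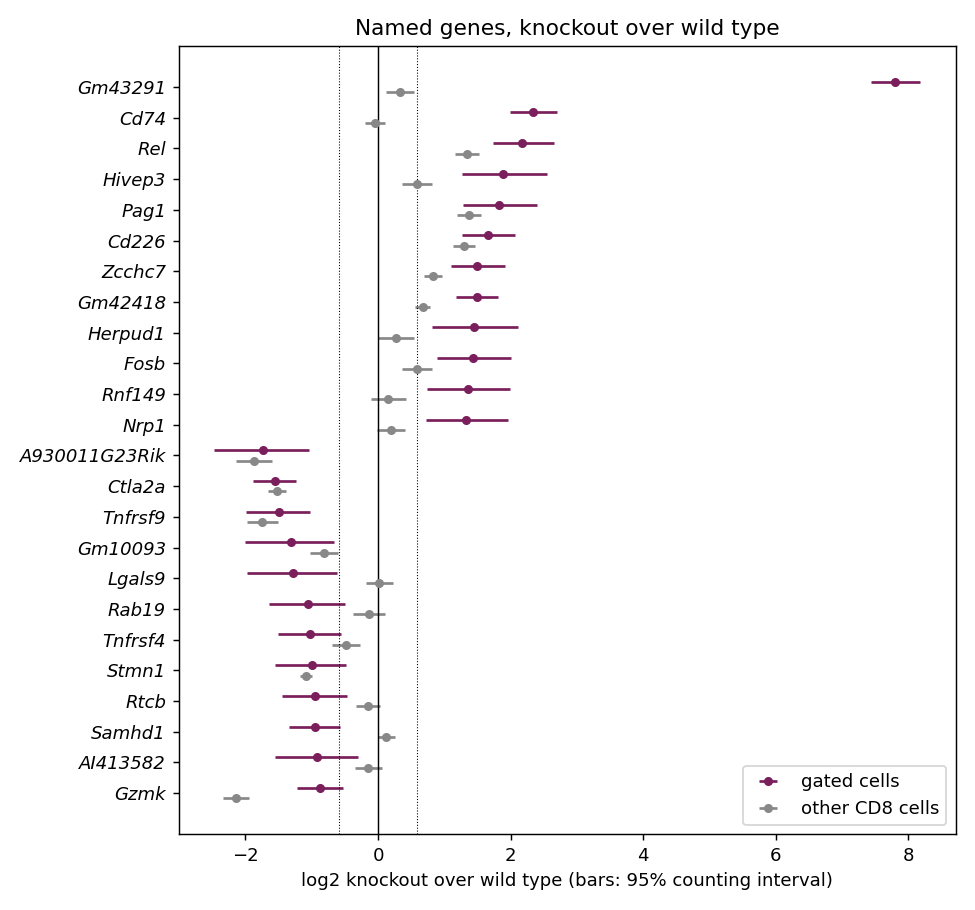
Points give the log2 ratio of knockout over wild type for the 24 named genes in gated and in other CD8 cells, with 95% counting intervals, and dotted lines mark 1.5-fold. Ctla2a and A930011G23Rik are lower in both classes, Lgals9 and Samhd1 in gated cells with values near 0 in the others, and Gm43291 rests on 1 barcode.

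By function, the interferon-stimulated list stood lowest. Of its 14 measured members 6 were over 1.5-fold lower and none higher, beside 4.01% of all genes lower. Its median was -0.54 in gated cells, 0.41 in other CD8 cells and -0.25 in Ccl5-high cells. Irf7 (59 and 21 UMIs) had -1.22 (-2.01 to -0.48), Isg15 (64 and 30) -0.82 (-1.50 to -0.18), and Gbp2 -0.77, with 28 of its 74 wild-type UMIs in 1 cell. Zbp1 and Ifi47 each had -0.68, and Ifi47 was at -0.56 (-1.01 to -0.13) without the 4 barcodes, inside 1.5-fold. Isg15 UMIs occurred in 30 of the 149 gated cells of the wild type and 24 of the 120 of the knockout, shares that hardly differed, and in 8.16% and 7.56% after thinning. Up to 12 of the Irf7 and 16 of the Isg15 wild-type UMIs sat in 1 cell. Ifit1 (37 and 6 UMIs) and Usp18 (36 and 6) were below the minimum, with 20 and 24 of their wild-type UMIs in 1 cell each. The list's median in gated cells lay between -0.82 and -0.30 in every setting tried.

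Of 21 measured effector and exhaustion transcription factors, 8 were higher and 1 lower, with a median of 0.43 in gated, -0.11 in other CD8 and 0.23 in Ccl5-high cells, beside 13.3% of all genes higher. Rbpj, the Notch effector, had 191 and 337 UMIs and a log2 ratio of 1.09 (0.83 to 1.35), beside 0.78 (0.53 to 1.03) in Ccl5-high cells. Maf had 1.30 from 21 and 43 UMIs. Prdm1 had 0.62 (0.15 to 1.10), with UMIs in 14.3% of wild-type and 16.0% of knockout gated cells after thinning. Eomes was the lower one, at -0.80 (-1.32 to -0.30), beside -1.76 in other CD8 cells.

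Of 19 measured TCR-induced and immediate early genes, 7 were higher and none lower, beside 13.3% and 4.01% of all genes. Their medians were 0.37 in gated and 0.59 in other CD8 cells, so the other CD8 cells differed at least as much between libraries. Of 13 cytokine receptors, 4 were higher, beside the same 13.3%. They were Tgfbr1 at 1.71 (0.88 to 2.60), Il18r1 at 1.31 (0.91 to 1.71), its partner chain Il18rap at 1.13 (0.42 to 1.86), and Il6st at 0.79 (-0.02 to 1.63), whose interval included 0. In other CD8 cells these were 0.15, -0.09, -0.23 and 0.84. The difference of log2 ratios between gated and other CD8 cells was 1.39 for Il18r1 (0.98 to 1.81). In the Ccl5-high cells Il18r1 was 0.40 (0.17 to 0.64).

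Effector transcripts differed in both directions. Of 10 granule and killing genes 3 were higher and 1 lower, beside 13.3% and 4.01% of all genes. The higher ones were Prf1 at 1.48 (16 and 37 UMIs), Gzma at 1.04 and Tnfsf10 (TRAIL) at 0.89, and the lower one was Gzmk. Gzma was found in 16 wild-type and 19 knockout gated cells, and its ratio was 1.49 in other CD8 cells. In Ccl5-high cells the ratios were 2.13 for Prf1 (8 and 29 UMIs), 1.62 for Gzma, 0.47 for Tnfsf10 and -1.26 for Gzmk. These differences were thus not particular to gated cells. Ifng was at 304 and 490 CPM, a log2 ratio of 0.69 (0.47 to 0.91), and 0.71 in Ccl5-high cells. Ccl5 was the lower chemokine, at 28382 and 18273 CPM, -0.64 (-0.66 to -0.61), beside -1.29 in other CD8 cells. Ccl3 (-0.21) and Ccl4 (0.19) stayed within 1.5-fold.

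Of 10 inhibitory receptors only Tigit passed 1.5-fold, at 0.86 from 24 and 36 UMIs. Pdcd1 was at 557 and 397 CPM (-0.49, -0.69 to -0.29), Lag3 at -0.17 and Ctla4 at 0.56. Of 10 costimulatory genes, Cd226 was higher and Tnfrsf9 and Tnfrsf4 lower. Of 7 NK-type receptor genes 1 was lower, Klre1 at -0.74 beside -2.01 in other CD8 cells, and 1 higher, Tyrobp, whose UMIs sat mostly in 1 cell of each library.

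Homing genes had 3 of 17 higher: Itga1 (0.93), Cd69 (0.79) and Itgae (integrin alpha E, 0.72). This share is near the 13.3% of all genes, and in Ccl5-high cells the ratios were 1.31, 0.86 and 1.14. Survival genes had 3 of 14 higher, led by Bcl2l11 (the death gene BIM) at 1.08, beside 0.98 in other CD8 cells. Progenitor genes had 3 of 8 higher, among them Bach2 (1.06, beside 1.21) and Slamf6 (0.69), and naive genes 3 of 4, beside a median of 1.04 in other CD8 cells. Slamf6 UMIs occurred in 18.8% of wild-type and 17.5% of knockout gated cells, shares that hardly differed. Tcf7, below the minimum here, was at 24.2 CPM in wild-type and 17.1 in knockout gated cells. The 18 S100, galectin and cytoskeletal genes had 1 higher (Ahnak, 1.12) and 1 lower, and the 18 TCR signalling genes 1 higher. The 13 glycolysis and 16 MHC class I genes had none past 1.5-fold, with medians of -0.18 and -0.32. None of the 9 stress genes passed it either (median 0.01).

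**Figure D5:**
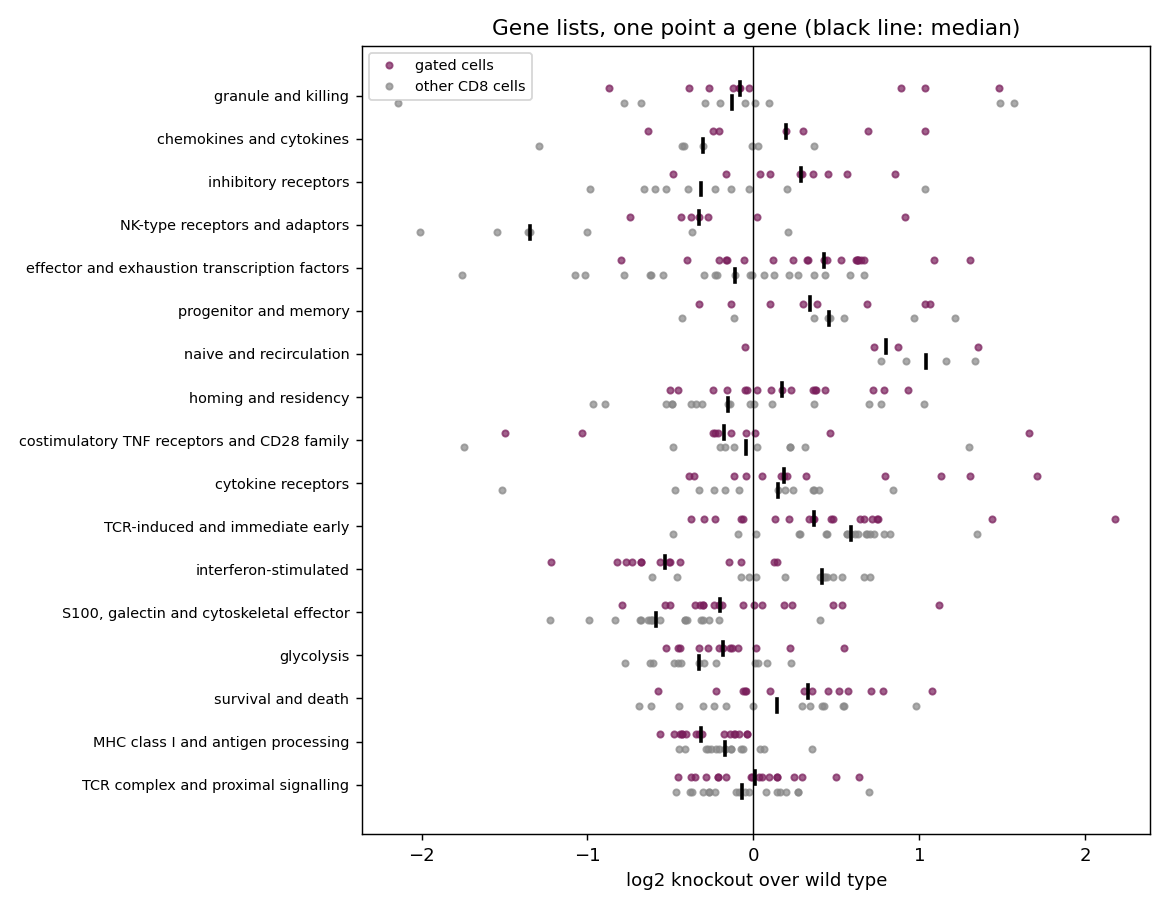
Each point is a gene of one of 17 lists, placed by its log2 ratio of knockout over wild type in gated and in other CD8 cells, and black lines give the medians. The interferon-stimulated median is -0.54 in gated and 0.41 in other CD8 cells.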

How the data were processed

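The wild-type and the Tnfrsf9-/- knockout library were grouped by their labels. The authors deposited counts: whole UMIs of 27998 genes per barcode, made with Cell Ranger 7.0.0 per the file headers and processing notes. 27645 gene identifiers matched GENCODE vM21 (GRCm38). The deposited counts totalled 19904506 and 19639995 UMIs over 2804 and 2991 barcodes, of which 2714 and 2915 cells passed the filter.

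UMIs were summed over each class and library and divided by the class total (CPM). Ratios had exact conditional binomial intervals, with 0 counts set to 0.5, CPM exact Poisson intervals, shares Clopper-Pearson intervals, and share differences Newcombe intervals. Differences of log2 ratios had Wald intervals. The ratio interval was tested on simulated data. Python 3.11.15, scipy 1.17.1 and edgeR 4.0.16 (TMM factors only) were used.

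The members and gene lists were chosen with earlier results of these data known. Named genes were, for gated against other CD8 cells, the 15 highest and 10 lowest mean log2 ratios past 2-fold in both libraries with 100 UMIs in each, and, for knockout against wild type, the 12 highest and 12 lowest past 1.5-fold with 100 UMIs in 20 or more gated cells. Gate and cycling genes were left out. Some genes that the rule names are not reported here. The Ccl5 split, made after a split on Nkg7 had been looked at and set aside, the limit of 20 B cell and MHC class II UMIs, the other share denominators, the motifs and the panels by gate level were chosen after values were seen.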

Additional observations from a re-analysis of the deposited data

Results flagged for a closer look

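Of 233 genes on the lists or named above, 8 had log2 ratios of knockout over wild type past 1.5-fold in gated cells and of opposite sign in the other CD8 cells, with both counting intervals clear of 0. The share of all measured genes that meet this rule is not given here, so the count of 8 is not read as a result about the lists. With 1 library per genotype the difference was not tested. The other CD8 cells also differed in makeup, with Ccl5-low cells at 32.9% (wild type) and 63.5% (knockout) of CD8 cells, by a cut on Ccl5, itself lower in the knockout.

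Higher in knockout gated cells were Xcl1 (1.03, beside -0.43 in other CD8 cells), Prdm1 (0.62 and -0.78), Tigit (0.86 and -0.66) and Tyrobp (0.91 and -1.002). Within the Ccl5-high cells these were -0.46, -0.34, -0.33 and -3.82, and for Prdm1 and Tigit the intervals included 0. Prdm1 UMIs occurred in 30.9% of wild-type and 45.0% of knockout gated cells, and in 14.3% and 16.0% after thinning. Xcl1 (a chemokine for cross-presenting dendritic cells) was found in 32 wild-type and 29 knockout gated cells, with 62 and 106 UMIs in 1 cell. Tyrobp had 50 of 50 wild-type and 51 of 78 knockout UMIs in 1 cell each, and 0 and 6 UMIs were left without the 4 barcodes.

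Lower in knockout gated cells were the interferon-stimulated genes Isg15 (-0.82, beside 0.54), Gbp2 (-0.77 and 0.43), Gbp4 (-0.73 and 0.43) and Ifi47 (-0.68 and 0.40). Without the 4 barcodes Ifi47 was at -0.56, no longer past 1.5-fold, and Isg15, Gbp2 and Gbp4 at -0.71, -0.70 and -0.63. Isg15 UMIs occurred in 30 of the 149 gated cells of the wild type and 24 of the 120 of the knockout. Within the Ccl5-high cells, the nearest class, these were -0.15, -0.33, -0.21 and -0.30, with intervals that included 0.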

How the results depend on the processing

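No paired analysis was possible because each genotype has 1 library. The difference in gated share was -2.36 points after thinning to 2000 UMIs and -3.59 with a gate of 3 UMIs, and stayed within the interval of -6.72 in the other 6 settings. Thinning cut the counts of genes, to 37 higher and 48 lower for gated against other CD8 cells and to 90 and 45 for knockout against wild type. The minimum count moved them most: at 200 UMIs 79 were lower for gated against other, and 100 higher and 29 lower for knockout against wild type, and at 1 UMI they were 1122 and 551, and 3620 and 2415. With other-lineage cells removed they were 75 lower, and 343 and 113. A strict cell filter gave 100 lower for gated against other, no cycling UMI gave 384 higher, and TMM scaling 340 lower, for knockout against wild type. The split at 2 Nkg7 UMIs, added after seeing the data, turned 11 higher and 23 lower genes against Ccl5-high cells into 82 and 86.

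Values that changed sign were as follows. For knockout over wild type, the chemokine list median was -0.10 with other-lineage cells removed, and after thinning the NK-type median was 0.019 and the S100 median 0.030. For gated over other, the chemokine median was -0.026 with no cycling UMI and -0.19 with other-lineage cells removed, and the costimulatory median -0.15 after thinning. Gm43291 was -0.17 after thinning, -0.81 with 2 of 3 gate genes and -0.050 with 4 CD8 UMIs. Cd74 was -0.98 after thinning and -2.26 with other-lineage cells removed, Tnfrsf4 0.83 and 0.29 in the same settings, Herpud1 -0.40 after thinning, and Stmn1 0.12 with 2 of 3 gate genes. The cause was not tested, beyond the single barcodes given above. Thinning left 76 and 75 gated cells, and 16 of the 24 genes named for knockout against wild type were still past 1.5-fold.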
